A study of Mus musculus with 18 samples.

Results

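The genes described here are 10 components of the Notch pathway in 4T1 cells, a mouse mammary carcinoma line: the ligands Jag1, Jag2 and Dll1, the receptors Notch1, Notch2, Notch3 and Notch4, the glycosyltransferase Lfng, and the target genes Hey1 and Hes1. They were taken by symbol from the gene count files, and 10 of 10 were found among 34591 symbols. The study sequenced poly(A) RNA of 18 cultures in 6 groups of 3, to follow the response to transforming growth factor beta 1 (TGFb1) and to overexpression of Wisp1, a CCN-family protein secreted into the matrix. Parental 4T1 cells were given fresh RPMI medium with recombinant human TGFb1 at 2 ng/mL (group TGFb1) or without it (untreated), and RNA was taken after 24 h. The other 12 cultures were stable, puromycin-selected lines carrying a lentiviral vector, either expressing Wisp1 or empty (EV). They were grown subconfluent on dishes coated with collagen type I (Wisp1 collagen, EV collagen) or on uncoated plastic (Wisp1 plastic, EV plastic); their time in culture is not given in the sources used here.

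Each vector is represented by cultures of a stable line, with no label for separate transductions, and nothing states that replicates came from separate thaws or days. The p-values therefore measure the spread between these cultures, which may be technical. The stable lines were other cells than the parental cultures, so levels in both kinds of culture are set side by side without a test.

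Notch signalling passes between touching cells. Ligands of the Jagged and Delta families on one cell bind Notch receptors on its neighbour, the receptor is cut by an ADAM protease and then by gamma-secretase, and the freed intracellular domain joins the DNA-binding protein Rbpj to switch on targets such as the Hes and Hey repressors. Fringe enzymes such as Lfng add a sugar to Notch and change which ligands it answers to. In the mammary gland the pathway is known for its part in luminal cell fate, and Jag1 and the receptors have been studied widely in breast cancer.

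Libraries held 37552858 to 94401699 gene counts. Levels are CPM (the count of a gene relative to the library's total) scaled by the trimmed mean of M values (TMM) over the 18 libraries. The Wisp1 transcript, which checks the labels, stood at 1058 to 1127 CPM in Wisp1 collagen, 14.3 to 16.4 CPM in EV collagen, 892 to 1065 CPM in Wisp1 plastic and 36.5 to 71.4 CPM in EV plastic. It was also higher with TGFb1, at 278 to 610 CPM against 9.14 to 39.9 CPM in untreated cells. All 8 epithelial markers examined exceeded 1 CPM in every group, with a summed level of 3339 to 6154 CPM. Of the 8 endothelial markers, 7 were under 1 CPM in every group, the exception being Flt1, and of the 8 leukocyte markers 6 were, the exceptions being Csf1r and Cd68, with Cd3e at 0 throughout. Of the 8 fibroblast markers 4 were under 1 CPM in every group, among them Thy1 at 0; Col1a1, Col1a2, Pdgfra and Pdgfrb were not.

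Promoters are shown for Jag1, which had the largest of the called increases under TGFb1, for Dll1, which changed most on collagen, and for Lfng, called in both. The sequences are the 250 bases before each annotated start, from RefSeq on GRCm38.p6, written 5′ to 3′ on the strand of the gene. Capitals mark each match, on either strand, to the Rbpj core TGGGAA, the AP-1 site TGACTCA or the SMAD element CAGACA.
Jag1 (chr2:137116521-137116770, minus strand): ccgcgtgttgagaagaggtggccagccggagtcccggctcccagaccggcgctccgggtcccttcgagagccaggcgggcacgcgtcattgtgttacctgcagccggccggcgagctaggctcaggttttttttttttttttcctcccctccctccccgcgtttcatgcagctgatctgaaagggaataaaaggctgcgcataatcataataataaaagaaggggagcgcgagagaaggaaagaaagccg
Lfng (chr5:140607091-140607340, plus strand): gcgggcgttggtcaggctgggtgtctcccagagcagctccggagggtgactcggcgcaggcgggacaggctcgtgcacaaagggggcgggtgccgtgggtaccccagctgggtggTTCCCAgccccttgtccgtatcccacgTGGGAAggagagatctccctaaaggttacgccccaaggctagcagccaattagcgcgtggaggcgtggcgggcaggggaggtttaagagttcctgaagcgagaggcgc
Dll1, first start (chr17:15375824-15376073, minus strand): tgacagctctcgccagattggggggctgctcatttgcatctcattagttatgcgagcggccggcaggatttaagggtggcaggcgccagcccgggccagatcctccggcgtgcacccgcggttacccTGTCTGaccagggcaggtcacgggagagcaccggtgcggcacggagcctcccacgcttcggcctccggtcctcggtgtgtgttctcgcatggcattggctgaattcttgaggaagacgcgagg
Dll1, second start (chr17:15376933-15377182, minus strand): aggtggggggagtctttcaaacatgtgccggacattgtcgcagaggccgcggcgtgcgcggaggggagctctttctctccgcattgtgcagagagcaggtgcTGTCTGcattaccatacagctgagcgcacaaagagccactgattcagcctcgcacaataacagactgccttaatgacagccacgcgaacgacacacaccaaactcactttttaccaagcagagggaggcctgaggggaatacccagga

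The Lfng window held the Rbpj core on both strands, its first bases 135 and 108 bases before the start. Each Dll1 window held the SMAD element on the opposite strand, as TGTCTG, at 123 and 148 bases before its start. The Jag1 window held none of the 3 motifs. Over 32851 mouse promoter windows of the same length, 21.6% held the Rbpj core, 4.46% the AP-1 site and 17.1% the SMAD element. Windows were found for 8 of the 10 genes, and those of Jag2, Notch1, Notch2, Notch3 and Notch4 held no match; Hes1 and Hey1 were not matched. A match describes letters in the window and is not evidence of binding, and the absence of one says nothing of the factor.

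Levels can be compared between genes only per length of exon. In the 5 groups other than TGFb1, group means were 9.98 to 11.5 CPM per kilobase for Notch2, 10.2 to 11.4 for Hes1 and 6.49 to 8.08 for Jag1. In TGFb1 cells Jag1 averaged 48.5 CPM per kilobase, Hes1 20.1 and Notch2 17.8, so that Jag1 led only there. Over all 6 groups the means were 4.13 to 8.59 CPM per kilobase for Lfng, 2.14 to 7.65 for Dll1, 1.72 to 3.99 for Notch1 and 0.564 to 1.95 for Jag2. Notch4 averaged 2.78 CPM per kilobase in TGFb1 cells and 0.370 in untreated cells, above Hey1 at 0.0512 and 0.0439. In the stable lines Hey1, at 0.291 to 0.436 CPM per kilobase, was above Notch4, at 0.0712 to 0.157. Notch2 was the most abundant receptor transcript in each group, and Notch3 was barely detected, with 1 to 32 counts per library. All 10 genes passed the filter on low counts in both fits.

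**Figure D1:**
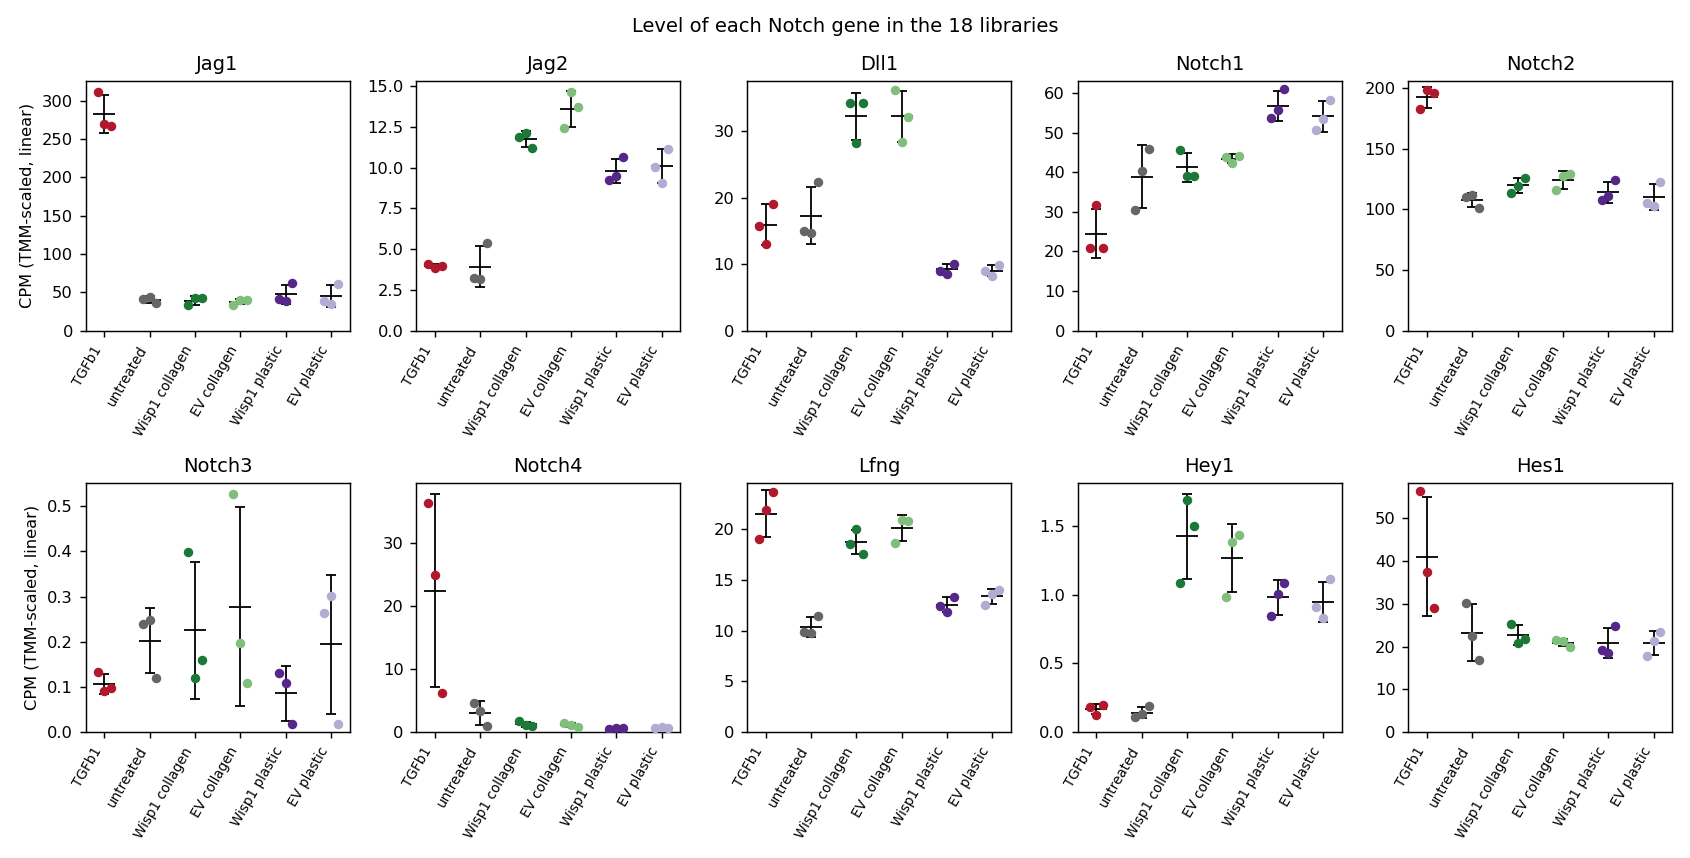
Each panel plots 1 gene, with TMM-scaled CPM on a linear axis, 1 point per library and bars for the mean and SD of the 3 libraries in each of the 6 groups. The 3 TGFb1 libraries of Jag1 (267 to 311 CPM) stand above all others, and the 6 collagen libraries of Dll1 (28.2 to 36.2 CPM) stand above the rest.

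TGFb1 raised the Jag1, Notch2 and Lfng transcripts in parental cells. Jag1 was about 7.08-fold, Lfng 2.10-fold and Notch2 1.80-fold higher with TGFb1 than without. The other 7 genes, Jag2, Dll1, Notch1, Notch3, Notch4, Hey1 and Hes1, were not called without the pairs described below. Of the 10 genes, 3 passed an adjusted p of 0.05 by edgeR's quasi-likelihood test with Benjamini-Hochberg adjustment over 14874 genes, all upward. Among all genes tested 11.1% passed, 6.14% upward and 4.92% downward. The median log2 change of the 10 genes was 0.52, against -0.01 over all genes. The parental libraries pair by the code in their titles. With the pairs as a block 6 of the 10 genes passed, 5 upward and 1 downward. Over all genes 44.9% did, 22.4% upward and 22.5% downward.

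Among the ligands, Jag1 encodes Jagged 1, which binds all the Notch receptors. It was measured at 311, 269 and 267 CPM in TGFb1 cells, against 41.6, 43.7 and 35.3 CPM in untreated cells. The groups lay far apart, and every TGFb1 library exceeded every untreated one. The log2 change was 2.82 ± 0.12 (SE, n = 3 each; edgeR adjusted p = 0.000702), and the ratio within pairs ran between 6.15 and 7.57. In the 12 libraries of the stable lines Jag1 stayed within 33.0 to 61.7 CPM, a range that overlapped that of untreated parental cells.

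Jag2 encodes the second Jagged ligand. It was at 4.05, 3.83 and 3.95 CPM with TGFb1 and at 3.23, 3.19 and 5.36 CPM without. These ranges overlapped, and the log2 change of 0.02 had a 95% interval of -0.60 to 0.64. Dll1, a Delta-family ligand, was at 15.7, 13.1 and 19.1 CPM with TGFb1 and at 14.9, 14.7 and 22.4 CPM without. Its groups overlapped too, and the log2 change of -0.10 had an interval of -0.65 to 0.45. Neither was called by edgeR (adjusted p = 0.979 for Jag2 and 0.851 for Dll1).

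Of the receptors, Notch2 was called upward. It was at 183, 198 and 196 CPM in TGFb1 cells and at 110, 112 and 101 CPM in untreated cells, without overlap, a log2 change of 0.85 ± 0.09 (SE; edgeR adjusted p = 0.00387). Notch4, a receptor best known from endothelium and first met in mouse mammary tumours as a site of viral insertion, varied most between cultures. It was at 36.3, 24.8 and 6.17 CPM with TGFb1 and at 4.65, 3.36 and 0.930 CPM without. In both groups replicate 3 was the lowest, yet the lowest TGFb1 library still exceeded the highest untreated one. With 0.01 CPM added to each value, the ratio within pairs was 7.78, 7.38 and 6.57. The log2 change of 2.91 ± 0.79 (SE) missed the threshold without the pairs (edgeR adjusted p = 0.0648) and passed it with the pairs as a block (adjusted p = 6.89e-06), with DESeq2 (adjusted p = 0.000292) and without TGFb1 replicate 3 (edgeR adjusted p = 0.0361).

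Notch1 stood lower with TGFb1 in all 3 pairs, at 21.0, 31.7 and 20.7 CPM against 30.4, 40.3 and 45.9 CPM in untreated cells. TGFb1 replicate 2 lay above untreated replicate 1, so the groups overlapped. The log2 change of -0.66 ± 0.23 (SE) was not called without the pairs (edgeR adjusted p = 0.13), but was with them (adjusted p = 0.0122) and with DESeq2 (adjusted p = 0.0458). Notch3 held 7 to 11 counts per library with TGFb1 and 10 to 20 without, and was not called (edgeR adjusted p = 0.254). Within the parental cells, Notch2 and Notch1 therefore stood on opposite sides of no change in every pair.

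Lfng, which encodes the fringe enzyme among the 10 genes, was at 19.0, 21.9 and 23.6 CPM in TGFb1 cells and at 9.84, 9.74 and 11.5 CPM in untreated cells. All TGFb1 libraries were higher, with no overlap. The log2 change was 1.07 ± 0.15 (SE; edgeR adjusted p = 0.00934), and the call was lost without untreated replicate 2 (adjusted p = 0.0625). It was kept with the pairs as a block.

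Hes1, the general Notch target and transcriptional repressor, was at 56.3, 37.5 and 29.1 CPM with TGFb1 and at 30.3, 22.6 and 16.9 CPM without. It was higher in each of 3 pairs, though TGFb1 replicate 3 lay below untreated replicate 1. The log2 change of 0.82 ± 0.30 (SE) was not called without the pairs (edgeR adjusted p = 0.143) and was called with them (adjusted p = 0.000135). Hey1, the other target, held only 11 to 15 counts per library with TGFb1 and 9 to 16 without, at 0.126 to 0.195 CPM and 0.108 to 0.191 CPM. It was not called (log2 change 0.23, 95% interval -0.70 to 1.16; edgeR adjusted p = 0.797).

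**Figure D2:**
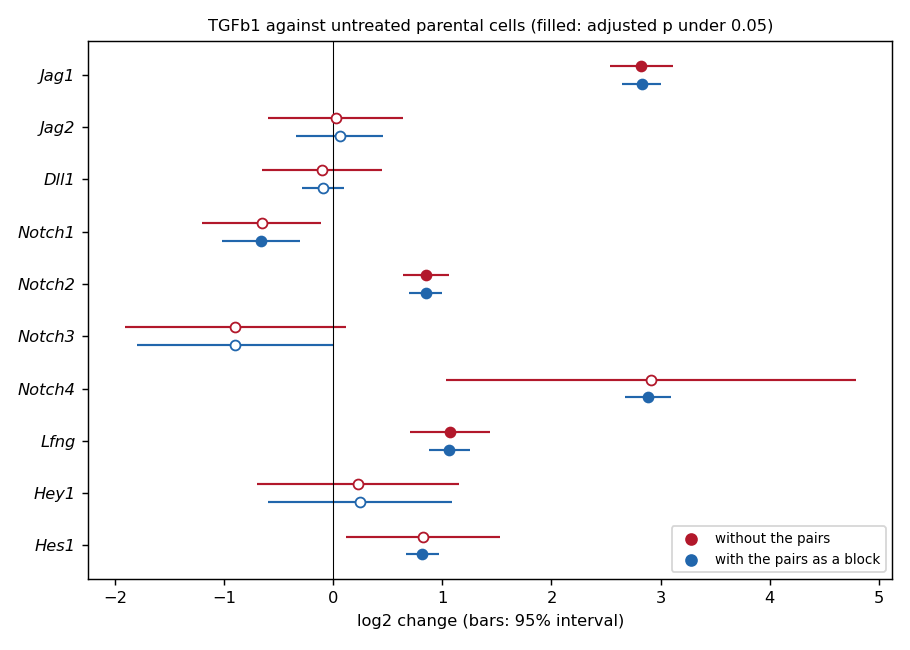
The log2 change of each gene, TGFb1 over untreated, is plotted with its 95% interval, once without and once with the pairs as a block; filled points have an adjusted p under 0.05. The estimates hardly move between the 2 fits, while the interval of Notch4 narrows most, to 2.67 to 3.10 with the pairs against 1.03 to 4.79 without.

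**Figure D3:**
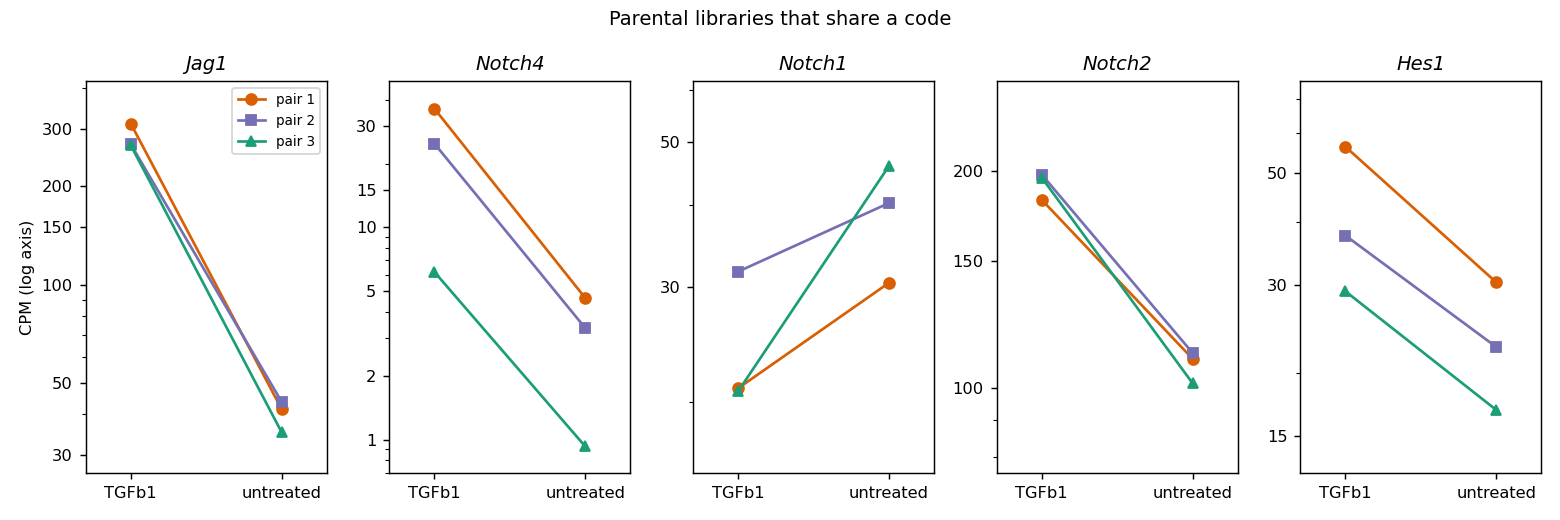
Lines join the TGFb1 and the untreated library of each pair, in CPM on a log axis, for 5 genes. Jag1, Notch2, Notch4 and Hes1 are higher with TGFb1 in 3 of 3 pairs and Notch1 is lower in all 3; for Notch4 and Hes1 the pairs are shifted against each other by more than for Jag1 and Notch2.

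Parental replicates 1 and 3 were the least alike of their groups over all genes (Pearson r across genes of log2 CPM 0.969 in TGFb1 and 0.971 in untreated cells). Summed epithelial markers were 3339 to 6039 CPM with TGFb1 and 4026 to 6154 CPM without. Summed endothelial markers, nearly all of them Flt1, were 40.4 to 44.9 CPM with TGFb1 and 50.6 to 67.8 CPM without. Summed leukocyte markers were 7.35 to 12.4 CPM with TGFb1 and 4.14 to 12.4 CPM without, and among them Csf1r was at 1.80 to 3.22 CPM and 0.0918 to 0.298 CPM. Summed fibroblast markers were 56.6 to 70.2 CPM with TGFb1 and 36.1 to 59.5 CPM without, and among them Col1a1 was at 2.94 to 16.1 CPM and 0.524 to 1.63 CPM. Csf1r and Col1a1 were singled out from their lists, and the leukocyte and fibroblast sums each overlapped between the groups. The part of these markers in the results was not tested. In bulk RNA, fewer cells expressing a gene and less RNA per cell cannot be told apart.

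The wider pathway was read from a list of 55 other genes, of which 47 were tested in the parental cells. With TGFb1 12 of them were called, 8 upward and 4 downward, beside 11.1% of all genes; the median log2 change of the 47 was 0.13. Without TGFb1 replicate 2 or untreated replicate 2 the count was 5, and without untreated replicate 1 it was 6. With the pairs as a block 27 were called, 18 upward and 9 downward, beside 44.9% of all genes. The central transcription factor fell: Rbpj averaged 138 ± 13.9 CPM with TGFb1 and 304 ± 7.24 CPM without (SD, n = 3 each), a log2 change of -1.13 ± 0.10 (SE; edgeR adjusted p = 0.00236).

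Furin, the convertase that makes the first cut in the Notch precursor, averaged 314 ± 52.7 CPM with TGFb1 and 99.4 ± 13.7 CPM without (SD), a log2 change of 1.67 (edgeR adjusted p = 0.00272). Of the 10 genes listed for proteases that cut Notch, 2 were called, 1 upward and 1 downward, beside 11.1% of all genes. The downward gene was Adam17 (log2 change -0.83, edgeR adjusted p = 0.0351), named after its values were seen. Its call was lost without any 1 TGFb1 library or without untreated replicate 1 or 2 (adjusted p 0.0683 to 0.101), and was kept with the pairs as a block. Of the 15 genes of endocytosis and turnover, 4 were called, all upward, beside 11.1% of all genes (6.14% upward). With the pairs as a block 11 of the 15 were called, 9 upward and 2 downward, beside 44.9% of all genes. Dtx3l, a Deltex-family ubiquitin ligase, changed by 1.38 (adjusted p = 0.00137), Dtx4, of the same family, by 1.28 (adjusted p = 0.00604), and Numbl, a relative of the Notch inhibitor Numb, by 1.26 on the log2 scale (adjusted p = 0.00944). The Numbl call was lost without TGFb1 replicate 2 (adjusted p = 0.0565) or untreated replicate 2 (adjusted p = 0.0639), and was kept with the pairs as a block.

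Targets outside the 10 genes went in both directions. Bhlhe40, a repressor that also answers to other signals, averaged 435 ± 88.7 CPM with TGFb1 and 73.3 ± 27.9 CPM without (SD; log2 change 2.58, edgeR adjusted p = 0.0049). Nrarp, a Notch-induced feedback inhibitor, singled out after its values were seen, averaged 21.1 ± 8.83 CPM with TGFb1 and 60.1 ± 12.6 CPM without (log2 change -1.50, adjusted p = 0.0384). Its call was lost without TGFb1 replicate 2 or without any 1 untreated library (adjusted p 0.0548 to 0.13). With the pairs as a block the Nrarp call was kept, when 44.9% of all genes were called. Among the other ligands, Dll4 ranged over 2.13 to 10.5 CPM with TGFb1 and 6.53 to 26.7 CPM without, and Dlk2 over 2.03 to 5.06 CPM and 5.26 to 10.5 CPM. Neither was called without the pairs (edgeR adjusted p = 0.368 and 0.143), and both were lower with them (adjusted p = 0.00132 for Dll4 and 0.000231 for Dlk2), as was Dlk2 with DESeq2 (0.0385). Of the gamma-secretase genes, none of Psen2, Ncstn, Aph1a, Aph1b, Aph1c and Psenen was called with TGFb1 by edgeR without the pairs; with them Ncstn (log2 change 0.25, adjusted p = 0.00583) and Aph1a (0.21, adjusted p = 0.0321) were higher.

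**Figure D4:**
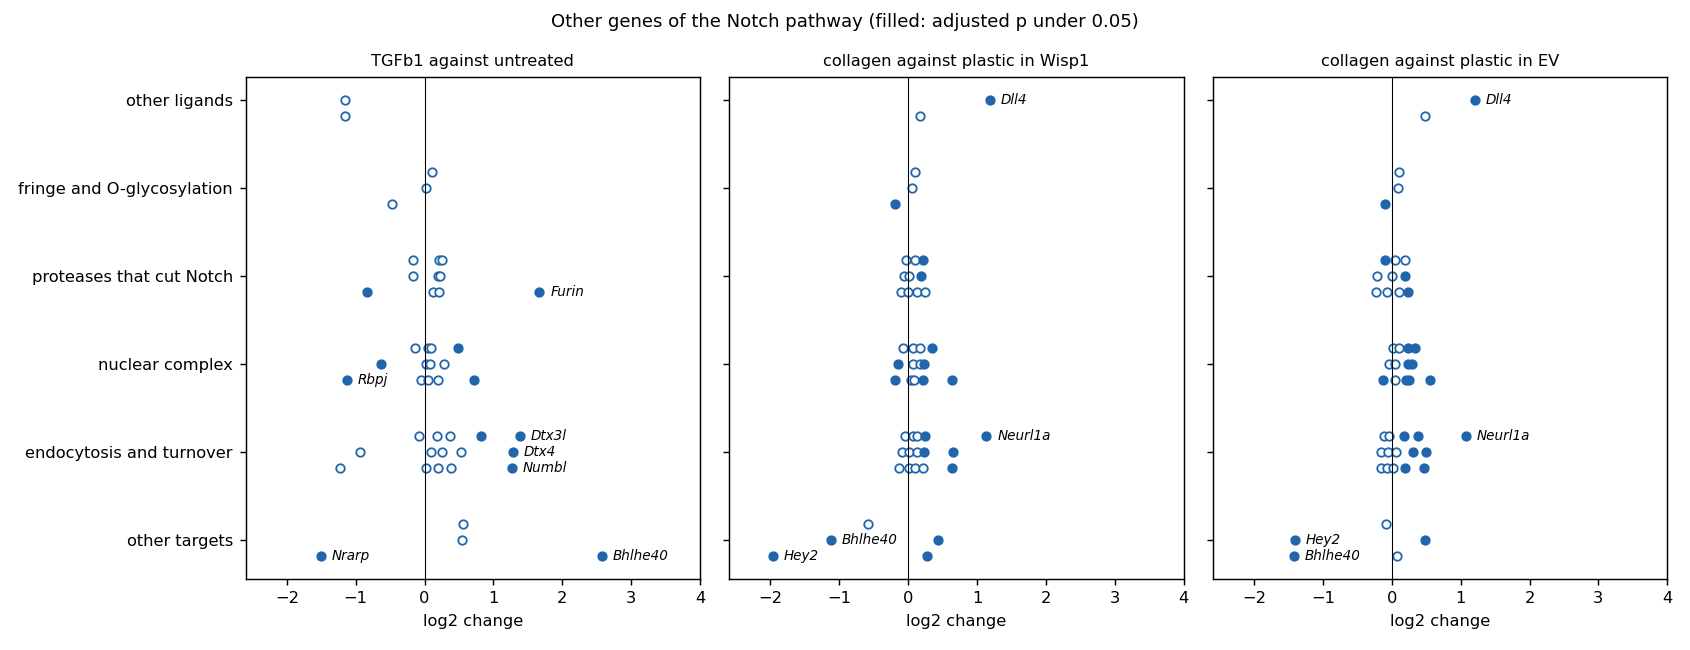
Other pathway genes are plotted by role, with the log2 change on the horizontal axis for TGFb1 over untreated and for collagen over plastic in the Wisp1 and the EV line; filled points have an adjusted p under 0.05, and called genes with a log2 change of at least 1 in size are named. Rbpj and Nrarp lie to the left under TGFb1, while Dll4 and Neurl1a lie to the right and Hey2 and Bhlhe40 to the left on collagen.

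Collagen type I raised Dll1, Jag2, Notch4 and Lfng and lowered Notch1, in both stable lines. The Dll1 change was the largest, 3.51-fold in the Wisp1 line and 3.60-fold in the EV line, and the others stayed under 2.25-fold. In each line 5 of the 10 genes were called by edgeR's quasi-likelihood test (4 upward, 1 downward), beside 40.4% of 13953 genes in the Wisp1 line (21.3% upward, 19.1% downward) and 36.5% in the EV line (19.2% upward, 17.3% downward). A share of 5 in 10 is near that background. The median log2 change of the 10 genes was 0.39 in each line, against 0.01 over all genes in the Wisp1 line and 0.00 in the EV line.

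Dll1 was at 34.3, 28.2 and 34.2 CPM in Wisp1 collagen, against 9.03, 8.49 and 10.1 CPM in Wisp1 plastic. EV cells had 36.2, 28.4 and 32.2 CPM on collagen, against 8.93, 8.21 and 9.94 CPM on plastic. All 6 collagen libraries exceeded all 6 plastic libraries by a wide margin. This was a log2 change of 1.81 ± 0.11 in the Wisp1 line (SE, n = 3 each; edgeR adjusted p = 9.35e-08) and 1.85 ± 0.11 in the EV line (adjusted p = 5.91e-08). On the mouse annotation used for lengths (GENCODE vM21), Dll1 overlaps the antisense transcript A930024N18Rik, which held 7 to 82 counts per library where Dll1 held 312 to 2948; whether counting used strand is not given in the sources used here.

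Jag2 moved less, at 11.9, 12.1 and 11.2 CPM in Wisp1 collagen against 9.21, 9.50 and 10.6 CPM in Wisp1 plastic. In EV cells it was at 12.5, 14.7 and 13.7 CPM on collagen against 10.0, 9.07 and 11.2 CPM on plastic. The groups did not overlap in either line. Its log2 change was 0.27 ± 0.09 in the Wisp1 line (SE; edgeR adjusted p = 0.0285) and 0.44 ± 0.09 in the EV line (adjusted p = 0.00144). The Wisp1-line call was lost without any of 4 single libraries: Wisp1 collagen replicate 1 (adjusted p = 0.0588) or 2 (0.0821), or Wisp1 plastic replicate 1 (0.103) or 2 (0.0864). Jag1 ranged over 33.0 to 42.5 CPM in the Wisp1 line on collagen and 38.1 to 61.7 CPM on plastic, and over 33.5 to 40.2 CPM and 34.3 to 61.2 CPM in the EV line, and was not called (edgeR adjusted p = 0.409 and 0.471). Plastic replicate 3 was the highest in both lines.

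Notch1, the receptor that fell, was at 45.6, 39.0 and 39.1 CPM in Wisp1 collagen, against 53.6, 55.6 and 60.9 CPM in Wisp1 plastic. The EV line had 43.8, 42.3 and 44.2 CPM on collagen, against 50.6, 53.5 and 58.4 CPM on plastic. Each collagen library lay below each plastic one. Notch1 changed by -0.45 ± 0.06 on the log2 scale in the Wisp1 line (SE; edgeR adjusted p = 0.000111) and -0.31 ± 0.06 in the EV line (adjusted p = 0.00172).

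Notch4 was low in all stable cultures, at 1.72, 1.13 and 0.938 CPM in Wisp1 collagen against 0.474, 0.653 and 0.596 CPM in Wisp1 plastic. In the EV line it was at 1.49, 1.17 and 0.863 CPM on collagen against 0.597, 0.762 and 0.593 CPM on plastic. The groups did not overlap, but the libraries held only 47 to 138 counts on collagen and 18 to 58 on plastic. The log2 change was 1.17 ± 0.28 in the Wisp1 line (SE; edgeR adjusted p = 0.00429) and 0.81 ± 0.26 in the EV line (adjusted p = 0.0256). The EV-line call was lost with limma-voom (adjusted p = 0.0537) and without EV collagen replicate 1 (0.0991) or 2 (0.0635) or EV plastic replicate 1 (0.0713) or 3 (0.0743). Notch2 ranged over 114 to 126 CPM on collagen and 108 to 124 CPM on plastic in the Wisp1 line, and over 116 to 129 CPM and 103 to 123 CPM in the EV line; it was not called (edgeR adjusted p = 0.422 and 0.0693). In the EV line Notch2 passed without EV collagen replicate 1 (0.0451) or EV plastic replicate 3 (0.00935).

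Lfng was at 18.6, 20.0 and 17.6 CPM in Wisp1 collagen, against 12.4, 11.9 and 13.3 CPM in Wisp1 plastic. For EV cells it was 18.6, 20.8 and 20.8 CPM on collagen, against 12.5, 13.6 and 14.0 CPM on plastic. The 6 collagen libraries all lay above the 6 plastic ones. The log2 change was 0.58 ± 0.07 in the Wisp1 line (SE; edgeR adjusted p = 2.83e-05) and 0.59 ± 0.07 in the EV line (adjusted p = 2e-05). Lfng was the only one of the 10 genes called upward both on collagen, in each line, and with TGFb1 without the pairs.

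The target genes were not called on collagen. Hes1 ranged over 20.9 to 25.3 CPM in Wisp1 collagen and 18.6 to 24.8 CPM in Wisp1 plastic, and over 19.9 to 21.6 CPM in EV collagen and 17.9 to 23.5 CPM in EV plastic. Its log2 change was 0.12 in the Wisp1 line (95% interval -0.12 to 0.36) and 0.00 in the EV line (-0.23 to 0.24). Hey1 ranged over 1.09 to 1.69 CPM on collagen and 0.842 to 1.09 CPM on plastic in the Wisp1 line, and over 0.980 to 1.43 CPM and 0.828 to 1.11 CPM in the EV line. Its log2 change was 0.52 in the Wisp1 line (edgeR adjusted p = 0.0727) and 0.44 in the EV line (adjusted p = 0.114); the Wisp1-line change passed without Wisp1 collagen replicate 1 (0.0189). Notch3 was at 1 to 32 counts in these libraries and was not called.

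**Figure D5:**
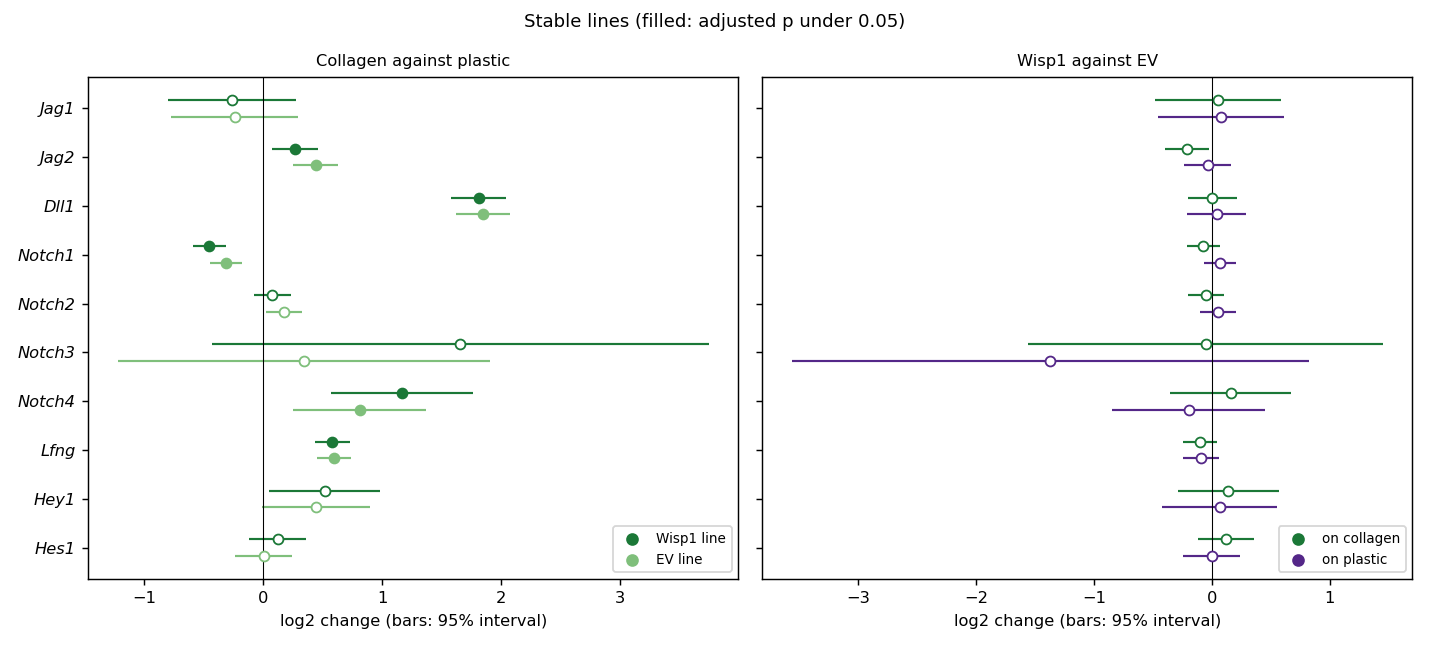
The left panel shows the log2 change of each gene on collagen over plastic in the Wisp1 and the EV line, and the right panel Wisp1 over EV on collagen and on plastic, with 95% intervals; filled points have an adjusted p under 0.05. Dll1 stands apart on the left at 1.81 and 1.85, while on the right no point is filled.

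Of 48 other pathway genes tested, 19 were called on collagen in the Wisp1 line (14 upward, 5 downward; median log2 change 0.10) and 23 in the EV line (18 upward, 5 downward; median 0.08). These shares lie beside 40.4% of all genes called in the Wisp1 line and 36.5% in the EV line, and the Wisp1-line share is at that background. The EV-line count was 14 without EV collagen replicate 2 and 15 without EV plastic replicate 1. Neurl1a, which encodes a ubiquitin ligase acting on Notch ligands, averaged 9.36 ± 0.512 CPM in Wisp1 collagen and 4.26 ± 0.604 CPM in Wisp1 plastic (SD, n = 3 each), a log2 change of 1.14 (edgeR adjusted p = 2.64e-06). In the EV line its change was 1.08 (adjusted p = 3e-06). The coactivator gene Maml3 rose by 0.64 in the Wisp1 line (adjusted p = 3.41e-05) and 0.56 in the EV line (adjusted p = 9.53e-05). The feedback gene Nrarp rose by 0.43 (adjusted p = 7.28e-05) and 0.48 (adjusted p = 3.05e-05) in the same lines, and the Deltex gene Dtx3 by 0.65 (adjusted p = 0.000145) and 0.49 (adjusted p = 0.00114). With all 18 libraries in 1 edgeR fit the Nrarp call was lost in both lines (adjusted p = 0.259 and 0.218). The Dtx3 call was lost there in the EV line (adjusted p = 0.0645). Maml1, another coactivator of the family, rose by 0.34 in the Wisp1 line (adjusted p = 0.000659) and 0.33 in the EV line (adjusted p = 0.000865).

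The Delta-family ligand Dll4 was higher on collagen, with a log2 change of 1.18 in the Wisp1 line (edgeR adjusted p = 0.00371) and 1.21 in the EV line (adjusted p = 0.00316). It averaged 6.27 ± 1.81 CPM in Wisp1 collagen, 2.76 ± 0.841 CPM in Wisp1 plastic, 6.21 ± 1.65 CPM in EV collagen and 2.69 ± 0.434 CPM in EV plastic (SD). Dlk2, an atypical ligand, was not called (adjusted p = 0.506 in the Wisp1 line and 0.0703 in the EV line), but in the EV line it passed with DESeq2 (0.0494) and limma-voom (0.0436), and in edgeR without EV collagen replicate 1 (0.0225) or Wisp1 collagen replicate 1 (0.0213). Of the gamma-secretase subunits, Ncstn rose by 0.22 (adjusted p = 0.000628) and 0.19 (adjusted p = 0.00195) and Psenen by 0.19 (adjusted p = 0.0409) and 0.23 (adjusted p = 0.0162) in the Wisp1 and EV lines. The Psenen call was lost in the Wisp1 line without Wisp1 collagen replicate 1 or 2, EV collagen replicate 2 or any 1 Wisp1 plastic library (adjusted p 0.0523 to 0.134), and with DESeq2 (0.0502), limma-voom (0.0525), no filter on low counts (0.0598) or a fit of that line's 6 libraries alone (0.0571). In the EV line it was lost without EV collagen replicate 1 (0.0753) or EV plastic replicate 2 (0.0748). With all 18 libraries in 1 fit it was lost in both (0.294 in the Wisp1 line and 0.201 in the EV line). In that fit the calls of Ncstn (0.302 and 0.427) and Dll4 (0.158 and 0.166) were lost in both lines too. Aph1b, another subunit, stood at the threshold in the EV line (log2 change -0.21, adjusted p = 0.0517), and passed with DESeq2 (0.0469), limma-voom (0.035), or without Wisp1 collagen replicate 1 (0.0437) or 3 (0.0452). Psen2, Aph1a and Aph1c were not called in either line. Rbpj showed a change of 0.07 in the Wisp1 line (95% interval -0.06 to 0.20) and 0.04 in the EV line (-0.09 to 0.17), and was not called.

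Hey2, a relative of Hey1, went down on collagen by edgeR: it averaged 0.175 CPM in Wisp1 collagen and 0.676 CPM in Wisp1 plastic (log2 change -1.97, adjusted p = 0.000437), and 0.291 CPM in EV collagen and 0.778 CPM in EV plastic (-1.41, adjusted p = 0.00179). These low levels rest on few reads, and the EV-line call was lost with all 18 libraries in 1 fit (adjusted p = 0.0518). Bhlhe40 fell too, to 46.7 ± 12.3 CPM in Wisp1 collagen against 103 ± 17.5 CPM in Wisp1 plastic (SD; log2 change -1.13, adjusted p = 0.00148). EV cells had 43.8 ± 4.66 CPM on collagen and 117 ± 19.8 CPM on plastic (SD; -1.42, adjusted p = 0.000419). Summed endothelial markers were 47.3 to 52.0 CPM in Wisp1 collagen and 36.7 to 38.1 CPM in Wisp1 plastic, and 49.6 to 51.0 CPM in EV collagen and 36.7 to 40.2 CPM in EV plastic. Flt1 made up nearly all of these sums. Leukocyte sums were 9.60 to 10.5 CPM in Wisp1 collagen and 5.52 to 7.90 CPM in Wisp1 plastic, and 7.54 to 10.2 CPM in EV collagen and 5.32 to 6.95 CPM in EV plastic. Fibroblast sums were 26.8 to 33.9 CPM in Wisp1 collagen and 17.0 to 19.2 CPM in Wisp1 plastic, and 25.7 to 30.8 CPM in EV collagen and 16.8 to 23.0 CPM in EV plastic. The part of these markers in the collagen results was not tested.

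Wisp1 overexpression gave no call among the 10 genes on either substrate. On collagen 0 of 10 passed by edgeR's quasi-likelihood test, by DESeq2 or by limma-voom, when 0.0717% of all genes passed edgeR's test (0.043% upward, 0.0287% downward). Jag2 alone had an unadjusted p under 0.05 there, in edgeR's quasi-likelihood test across all genes (adjusted p = 0.91). On plastic 0 of 10 passed by the same 3 tools, when 0.0143% of all genes passed edgeR's test, and 0 had an unadjusted p under 0.05. These comparisons use the same 12 libraries as the collagen comparisons and are not independent of them.

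The intervals say what size of change remained possible. On collagen, Wisp1 over EV, the log2 change of Dll1 was 0.01 (95% interval -0.21 to 0.22), that of Notch1 -0.07 (-0.21 to 0.07), that of Notch2 -0.05 (-0.20 to 0.11) and that of Lfng -0.10 (-0.24 to 0.04). On plastic the same genes stood at 0.04 (-0.21 to 0.29), 0.07 (-0.07 to 0.21), 0.05 (-0.10 to 0.21) and -0.09 (-0.24 to 0.06). Jag1 was less well fixed, at 0.05 (-0.48 to 0.59) on collagen and 0.08 (-0.46 to 0.62) on plastic, and Hes1 was at 0.12 (-0.11 to 0.36) and 0.00 (-0.24 to 0.24). Jag2 lay lower in each Wisp1 collagen library than in any EV collagen library, at 11.2 to 12.1 CPM against 12.5 to 14.7 CPM, a log2 change of -0.21 (-0.40 to -0.02).

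Notch4, Hey1 and Notch3 had few counts in these libraries, and their intervals were wide. The interval of Notch4 was -0.35 to 0.67 on collagen and -0.84 to 0.45 on plastic, that of Hey1 -0.29 to 0.57 and -0.42 to 0.56, and that of Notch3 -1.55 to 1.45 and -3.56 to 0.82 on the log2 scale. Of the 48 other pathway genes tested, 0 were called on either substrate by edgeR; 0 on collagen and 1 on plastic had an unadjusted p under 0.05. Deviations of same-numbered Wisp1 and EV libraries of a substrate correlated at 0.11 to 0.47, which cannot establish that these libraries pair. With the replicate number as a block 1 other pathway gene was called on collagen (Neurl3), when 2.57% of all genes were (1.63% upward, 0.939% downward), and 2 on plastic (Dlk2 and Kat2a), when 3.15% were (2.08% upward, 1.08% downward). These 3 were named after their values were seen.

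Whether Wisp1 acted differently on collagen and on plastic, or equally whether collagen acted differently in the lines, was asked with an interaction term. It called 0 of 13953 genes (0%) by edgeR, where 410 had an unadjusted p under 0.05, and 1 gene each by DESeq2 and limma-voom; none of the 10 Notch genes had an unadjusted edgeR p under 0.05. The difference between the collagen effects in the Wisp1 and EV lines was -0.04 for Dll1 (95% interval -0.36 to 0.29), -0.17 for Jag2 (-0.44 to 0.10), -0.14 for Notch1 (-0.33 to 0.05) and -0.01 for Lfng (-0.22 to 0.20) on the log2 scale. The larger Notch1 and smaller Jag2 change in the Wisp1 line were therefore not shown to differ from those in the EV line.

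Across all 6 groups the genes fell into different orders. Jag1 was highest in TGFb1 cells, and the ranges of the other 5 groups each overlapped the next. Notch2 was highest there too, and its other 5 groups overlapped in turn. Lfng was at its highest in TGFb1 cells (21.5 ± 2.32 CPM), EV collagen (20.1 ± 1.28 CPM) and Wisp1 collagen (18.7 ± 1.21 CPM), 3 groups with overlapping ranges, and lowest in untreated cells (10.4 ± 0.974 CPM; SD, n = 3 each). Dll1 had 3 levels: the collagen groups at 28.2 to 36.2 CPM, the parental groups at 13.1 to 22.4 CPM and the plastic groups at 8.21 to 10.1 CPM. Notch1 was highest in Wisp1 plastic (56.7 ± 3.77 CPM) and EV plastic (54.2 ± 3.90 CPM), and lowest in TGFb1 cells (24.5 ± 6.24 CPM).

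Jag2 and Hey1 separated the stable lines from the parental cells. Jag2 was at 9.07 to 14.7 CPM in the stable lines and 3.19 to 5.36 CPM in parental cells, and Hey1 at 0.828 to 1.69 CPM and 0.108 to 0.195 CPM. Notch4 went the other way, with some overlap, at 0.474 to 1.72 CPM in the stable lines and 0.930 to 36.3 CPM in parental cells. The vector, selection and culture cannot be told apart from the experiment in these differences. Hes1 covered 16.9 to 30.3 CPM in all groups but TGFb1, and neighbouring groups overlapped throughout its order.

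Genes among the most like each called member over the 18 libraries, by Pearson r of log2 CPM among 10504 genes averaging at least 5 CPM, are given as a description, since libraries of a group share their condition. They were D18Ertd653e (r = 0.980) for Jag1, and Il24 (0.982) and Prl2c3 (0.968) for Jag2. For Dll1 they were Cables2 (0.970) and Angptl2 (0.953), for Notch1 Pigf (0.948) and 2010204K13Rik (0.941), and for Notch2 Hip1r (0.979) and Sdc3 (0.973). Notch4 was nearest to Ctns (0.986) and Lix1l (0.983), and Lfng to Ltbp1 (0.946) and Nav2 (0.926). Ltbp1, for example, averaged 386 ± 19.7 CPM in Wisp1 collagen and 274 ± 7.47 CPM in Wisp1 plastic (SD, n = 3 each).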

How the data were processed

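RNA of 18 cultures was made into poly(A)-selected stranded libraries, per the labels' protocols. The authors deposited raw read counts per gene symbol, 1 file per library; per the submitters' processing notes the tools included STAR, BWA, HTSeq, CASAVA and limma under R 3.2.4 with the mm9 build, roles not stated, and the strand setting of counting is not given in the sources used here. Rows that name no gene were left out; among them reads in no annotated gene made up 10.2% to 13.5% of each library.

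For each comparison, the quasi-likelihood F test of edgeR 4.0.16 in R 4.3.3 was run on counts kept by filterByExpr and scaled by TMM, with robust dispersion, Benjamini-Hochberg adjustment over all genes tested and a threshold of 0.05. TGFb1 was fitted on the 6 parental libraries (14874 genes) and the stable lines on their 12 libraries with 4 group means (13953 genes). Standard errors are the log2 change divided by the square root of F. DESeq2 1.42.0, limma-voom (limma 3.58.1), other filters and scalings, other sample sets, replicate blocks and leaving out each library were alternatives. The edgeR test without blocks was run on simulated counts for TGFb1 against untreated and for collagen against plastic in the EV line. The other comparisons and fits were not run on simulated counts.

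Same-numbered libraries were checked for shared deviations from their group means over 13805 genes. Correlations were 0.82, 0.60 and 0.80 for the parental pairs, which share a code in their titles. They were 0.11, 0.22 and 0.22 for Wisp1 and EV on plastic and 0.47, 0.15 and 0.33 on collagen. All exceeded a set minimum of 0.1, so these numbers were taken to pair the libraries. Differently numbered libraries were not compared, so for the stable lines the check cannot establish the pairing. No replicates agreed within sampling noise (chi-square per degree of freedom 3.19 to 225). Exon lengths and overlaps came from GENCODE vM21 on GRCm38, and promoters from RefSeq on GRCm38.p6; neither is the build of the counts.

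The 10 genes and all lists were chosen with earlier results of these data known. Named without further choice were the 10 genes, up to 6 called genes of the wider list with the smallest p per comparison, any other ligand, Rbpj, the gamma-secretase subunits, and 2 genes nearest in pattern to each called member. Results for some genes that this rule names are not reported here.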

Additional observations from a re-analysis of the deposited data

Results flagged for a closer look

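Notch2 was the 1 gene of the 10 in which Wisp1 minus EV had one sign in every same-numbered pair on collagen and the opposite sign in every pair on plastic. On the log2 scale the pairs stood at -0.02, -0.09 and -0.04 on collagen and at 0.03, 0.11 and 0.02 on plastic. The effect on collagen minus that on plastic was -0.10, with a 95% interval of -0.32 to 0.12, and the interaction term did not pass (edgeR's quasi-likelihood test across all genes, adjusted p = 0.973).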

How the results depend on the processing

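Of 1131 alternative values of the 10 genes, 1101 kept their side of the threshold, 16 lost their call and 14 gained one. No called value changed direction, but 64 of the values, over 20 gene and comparison pairs, had the other sign than reported. None of these was called in either fit, and in the alternative fits their adjusted p was 0.603 or more. Their log2 fold changes reached 0.73 in size for Notch3 and 0.22 for the other genes, and 1037 values kept both side and sign. The 3 calls with TGFb1 became 5 with DESeq2, 6 with the replicate block and 6 with all 18 libraries in 1 fit; leaving out 1 library gave 2 to 4. The 5 calls on collagen became 2 in the Wisp1 line and 2 in the EV line with all 18 libraries in 1 fit, where the parental spread enters: Jag2 (adjusted p = 0.362 and 0.121), Notch1 (0.0512 and 0.185) and Notch4 (0.27 and 0.461) were lost in the Wisp1 and EV lines, and the wider list's calls fell to 6 and 4. Leaving out 1 library gave 4 to 5 in each line. The Wisp1 and interaction counts of the 10 genes were 0 under every alternative run. The within-substrate block moved the calls over all genes to 358 on collagen, against 10 without it, and to 440 on plastic, against 2; it changed no call among the 10 genes. For collagen against plastic the replicate numbers were not taken to pair the libraries (correlations of -0.11 to 0.28 in the EV line and -0.06 to -0.01 in the Wisp1 line). The edgeR block over all 4 groups added Hey1 in the Wisp1 line (adjusted p = 0.0254) and Notch2 in the EV line (0.008). Over all genes the 1645 TGFb1 calls became 6672 with the block, 4865 with all 18 libraries, 2910 with DESeq2, and 380 (without untreated replicate 2) to 1430 (without TGFb1 replicate 1) with 1 library left out; DESeq2 made 40 calls for Wisp1 on collagen and 18 on plastic. Only 1 to 32 counts per library stood behind Notch3 and 9 to 131 behind Hey1.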
